A study of Mus musculus with 6 samples.

Results

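The genes described here are Ppara, which encodes the nuclear receptor PPARα, Angptl4, a secreted inhibitor of lipoprotein lipase and a classical PPAR target, and 7 genes of mitochondrial fatty acid β-oxidation (Cpt1a, Cpt2, Acadvl, Acadl, Acadm, Hadha and Hadhb). They were taken by gene symbol, and all 9 were found among the 55487 genes listed. RNA was measured in endothelial cells sorted from P7.5 mouse retinas, 3 control and 3 Bmal1;CKO (mutant) libraries, with 3 animals of a C57BL/6J background per genotype according to the methods. Control animals carried tdTomato FL/+ and Pdgf-icreER, and mutant animals carried Bmal1 FL/FL, tdTomato FL/+ and Pdgf-icreER. Pups of either genotype were given tamoxifen daily between P0.5 and P2.5. The cells collected were positive for the GFP of the Pdgf-icreER transgene and for the tdTomato switched on by recombination. The comparison asked whether loss of the clock gene Bmal1 in these cells was accompanied by other levels of PPARα pathway and fatty acid oxidation transcripts. Tissue was taken at noon according to the paper, so levels at other times of day were not measured. No floxed Bmal1 allele is listed for the control animals.

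Fatty acids enter mitochondria as acylcarnitines, made by CPT1A in the outer membrane and turned back into acyl-CoA by CPT2 in the inner membrane. Each round of β-oxidation then begins with an acyl-CoA dehydrogenase, VLCAD (Acadvl), LCAD (Acadl) or MCAD (Acadm) depending on chain length. The remaining steps for long chains run on the trifunctional protein, whose α and β subunits come from Hadha and Hadhb. PPARα binds DNA as a heterodimer with a retinoid X receptor and turns on many of these genes when fatty acids are abundant, and endothelial cells use fatty acid carbon for nucleotide synthesis and redox balance during vessel growth.

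The sequence before the start of the genes was available for 8 of the 9 (RefSeq, GRCm38.p6, windows of 300 bases from 250 before to 50 after the start). No entry was given for Angptl4. The windows of 3 genes are shown. That of Acadl belongs to the only one of the 9 genes whose groups did not overlap, that of Cpt1a holds a PPAR half-site, and that of Hadhb overlaps the window of Hadha on the other strand. Capitals mark GC boxes (GGGCGG on either strand) for Acadl and Hadhb, and the half-site (AGGTCA on either strand) for Cpt1a.
Acadl, chr1:66863260-66863559, minus strand: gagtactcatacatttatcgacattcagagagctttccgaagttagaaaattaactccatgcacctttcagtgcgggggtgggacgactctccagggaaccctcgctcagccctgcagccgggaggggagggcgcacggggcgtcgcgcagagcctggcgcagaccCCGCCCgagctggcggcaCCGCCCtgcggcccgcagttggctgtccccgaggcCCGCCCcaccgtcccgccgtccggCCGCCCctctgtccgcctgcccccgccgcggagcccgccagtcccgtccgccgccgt
Cpt1a, chr19:3323051-3323350, plus strand: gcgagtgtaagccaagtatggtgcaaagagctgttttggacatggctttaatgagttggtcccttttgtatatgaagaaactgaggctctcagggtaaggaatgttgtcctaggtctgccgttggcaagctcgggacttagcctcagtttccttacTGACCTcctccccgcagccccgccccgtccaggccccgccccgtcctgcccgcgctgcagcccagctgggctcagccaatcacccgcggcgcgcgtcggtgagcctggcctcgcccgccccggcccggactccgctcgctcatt
Hadhb, chr5:30155003-30155302, plus strand: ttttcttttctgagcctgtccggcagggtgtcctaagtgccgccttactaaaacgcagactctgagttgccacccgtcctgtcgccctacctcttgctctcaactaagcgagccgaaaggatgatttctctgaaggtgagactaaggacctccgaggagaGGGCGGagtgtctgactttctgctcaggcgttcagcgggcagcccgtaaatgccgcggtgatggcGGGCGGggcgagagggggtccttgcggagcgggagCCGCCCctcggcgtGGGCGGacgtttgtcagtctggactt

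The PPAR half-site AGGTCA was found in 3 of the 8 windows (Cpt1a, Acadvl and Acadm) and in 16.3% of all 32851 windows of the same length. Its direct repeat spaced by 1 base, AGGTCANAGGTCA, was in 0 of the 8 and in 0.0396% of all windows. The E-box CACGTG, the element read by BMAL1 with CLOCK, was in 0 of the 8 and in 7.15% of all. GC boxes were in 6 of the 8 and in 35.7% of all, with 4 in each of Acadl and Hadhb. The windows of Hadha and Hadhb overlapped by 228 bases, since these genes point away from each other with 272 bases between the RefSeq start sites. In the GENCODE M21 annotation 85 bases lie between the genes. These matches describe letters in short windows and say nothing about binding.

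The files gave 71145068 to 104017800 reads on genes per library, and the 9 genes had between 43 and 11903 reads in a library, with at least 10 in every library for all of them. The values below are normalized counts, that is, counts divided by the size factor of the library. Libraries are numbered as in the table, 1 to 3 for control and 4 to 6 for mutant. Arntl, the symbol of Bmal1, had 1700, 3489 and 2928 normalized counts in control and 1779, 2747 and 2415 in mutant libraries. Its level over the whole gene therefore did not separate the genotypes here (log2 fold change -0.19, limma-trend adjusted p = 0.924), and the deleted exon was not analysed separately. By droplet digital PCR on sorted endothelial cells, the paper reported significantly less Bmal1 transcript in mutant than in control. All 14 endothelial markers had at least 10 reads in every library, and so did all 9 microglial and all 10 rod markers. Summed microglial markers were 6.03 to 9.61 times the endothelial sum in control and 7.47 to 21.6 times in mutant libraries, so the sorted material held transcripts of other cells. The summed markers of each of the 7 cell types followed overlapped between the groups. In such bulk samples fewer cells of a type and less RNA per cell cannot be told apart.

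Across the 9 genes, 6 were lower and 3 were higher in mutant than in control, with a median log2 fold change of -0.054 beside 0.11 over all 20459 genes tested. Of all genes tested, 43.4% were lower. None of the 9 passed FDR < 0.05 by limma-trend, the background being 0.0% of all genes (0 of 20459, although 1007 had an unadjusted p below 0.05). The Wald test of DESeq2 called 67 genes (0.327%), and 0 of the 9 were among them. Acadl was the only one with an unadjusted p under 0.05, lower in mutant, against 1.75% of all genes lower and 3.17% higher at that threshold, 4.92% in either direction. The share of such genes that were higher was 64.4% by limma-trend and 50.1% by edgeR with TMM scaling, and the median over all genes was -0.031 by edgeR, while the count of 6 lower and 3 higher was the same by both. Acadl was also the only one whose groups did not overlap, where 4.54% of all genes were lower and 6.62% higher without overlap.

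**Figure D1:**
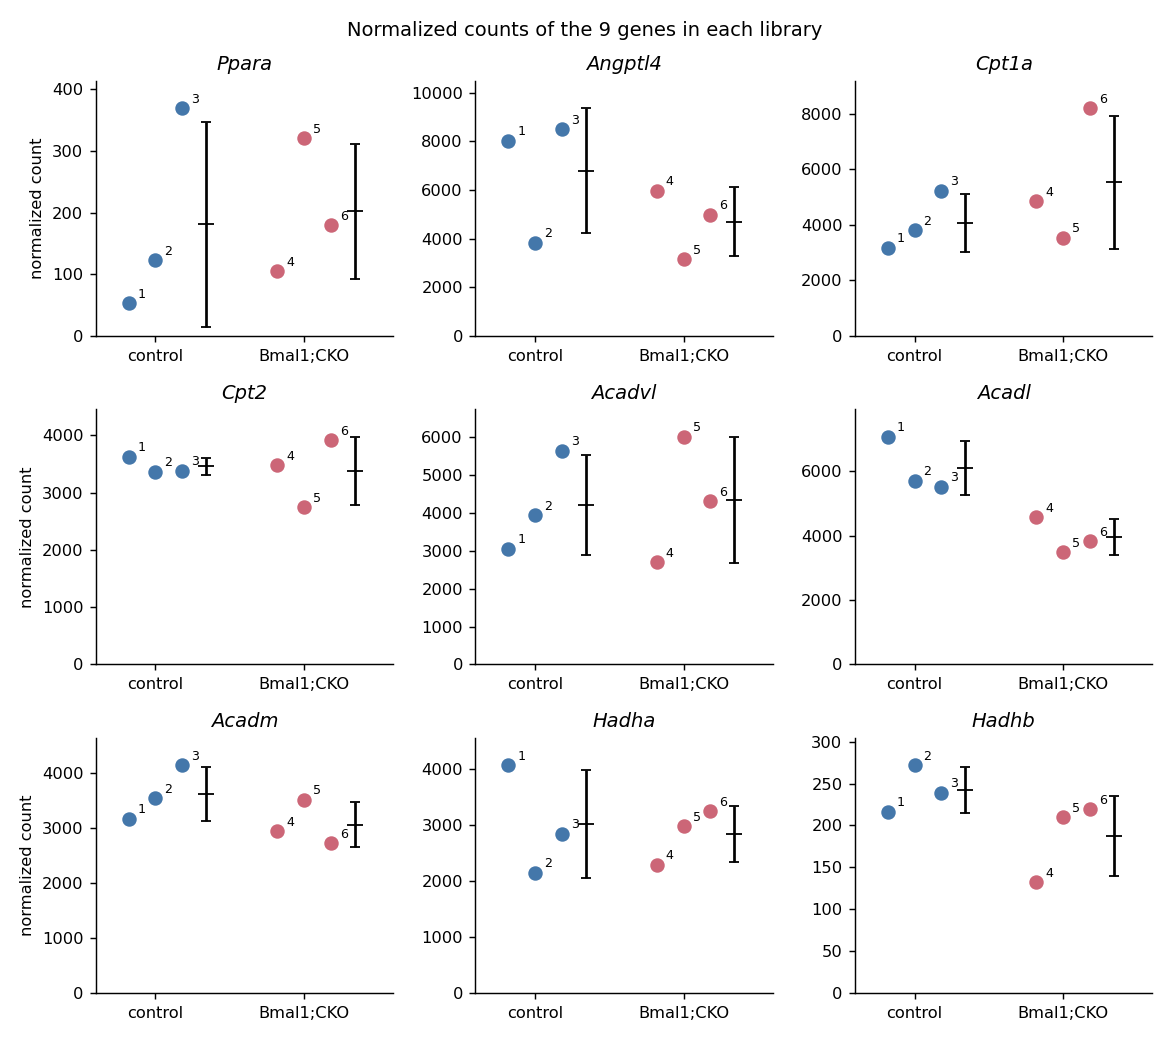
Normalized counts (vertical axis, from 0) of each of the 9 genes in 3 control (blue) and 3 Bmal1;CKO (red) libraries, numbered as in the table, with the mean and SD of each group in black. The 3 mutant libraries lay below the 3 control libraries for Acadl only, and Ppara had the widest relative spread.

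Ppara (ENSMUSG00000022383, GRCm38 chromosome 15, 85734983 to 85802819, plus strand), the receptor itself, was a low transcript with a wide spread in both groups. Its normalized counts were 52.9, 122 and 369 in control and 105, 321 and 180 in mutant libraries. The lowest and the highest value were both in control libraries, and the groups overlapped throughout. The means were 182 ± 166 and 202 ± 110 (SD, n = 3 each; two-sided exact permutation test, p = 0.8). On the log2 scale the difference was 0.44 (95% interval -1.69 to 2.57, limma-trend adjusted p = 0.929), an interval wide enough for a large change in either direction. DESeq2 and edgeR with TMM, which model the counts, gave 0.15 and 0.14. Without control library 1 the limma-trend difference became -0.22. The pooled SD within groups was 1.14 log2 units, and 69.5% of all genes tested had a smaller one.

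Angptl4 (ENSMUSG00000002289, chromosome 17, 33773750 to 33781830, minus strand) was an abundant transcript. Its normalized counts were 8027, 3829 and 8505 in control and 5965, 3168 and 4979 in mutant libraries. Control libraries 1 and 3 lay above all mutant libraries, and control library 2 lay below mutant libraries 4 and 6. The group means were 6787 ± 2573 and 4704 ± 1419 (SD, n = 3 each; exact permutation test, p = 0.3), with a log2 difference of -0.49 (95% interval -1.41 to 0.42, limma-trend adjusted p = 0.883). Leaving out control library 2 gave -0.86 and leaving out mutant library 5 gave -0.23. Per 100 normalized counts of the summed endothelial markers Angptl4 had 1.66 to 4.10 in control and 1.85 to 2.59 in mutant libraries, again overlapping.

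Of the carnitine palmitoyltransferases, Cpt1a (ENSMUSG00000024900, chromosome 19, 3322334 to 3385733, plus strand), the malonyl-CoA-sensitive entry step, was higher on average in mutant libraries. It had 3182, 3817 and 5230 normalized counts in control and 4861, 3533 and 8198 in mutant libraries. The highest value, in mutant library 6, carried much of this difference, which was 0.38 on the log2 scale (95% interval -0.47 to 1.24, limma-trend adjusted p = 0.883) and 0.055 without that library. Cpt2 (ENSMUSG00000028607, chromosome 4, 107903981 to 107923610, minus strand) was among the most even of the 9, with 3628, 3370 and 3384 normalized counts in control and 3482, 2743 and 3919 in mutant libraries. Its log2 difference was -0.048 (95% interval -0.63 to 0.54, limma-trend adjusted p = 0.976). The ratio of Cpt1a to Cpt2 within a library was 0.877 to 1.55 in control and 1.29 to 2.09 in mutant, and overlapped (exact permutation test, p = 0.3).

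Among the acyl-CoA dehydrogenases, Acadl (ENSMUSG00000026003, chromosome 1, 66830839 to 66863277, minus strand), whose GC-rich start is printed above, separated the genotypes. Its normalized counts were 7063, 5701 and 5511 in control and 4565, 3479 and 3830 in mutant libraries. Every mutant library lay below every control library. The means were 6091 ± 846 and 3958 ± 554 (SD, n = 3 each), a ratio of mutant to control of 0.650, and the two-sided exact permutation test gave p = 0.1, the smallest that 3 against 3 allows. The log2 difference was -0.62 (SE 0.24, 95% interval -1.19 to -0.057). By limma-trend the unadjusted p was 0.0350 and the adjusted p 0.883. Over the 16 alternative analyses it ran from -0.73 to -0.51, with adjusted p from 0.378 to 1.0, and the unadjusted p was under 0.05 in 11. In the other 5, without control library 1 or 2, without mutant library 5 or 6, or without the variance trend, the unadjusted limma p lay between 0.0530 and 0.126. Acadl did not pass the test across all genes in any of them.

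Acadl was then set against other transcripts of the same libraries, a step chosen after its values were seen. The ratio of Acadl to Cpt2, the most evenly measured of the 9, was 1.95, 1.69 and 1.63 in control and 1.31, 1.27 and 0.977 in mutant libraries, without overlap (exact permutation test, p = 0.1). Since Cpt2 varied little, this ratio largely repeats the separation of Acadl and adds no independent support. As a share of the normalized counts of Acadvl, Acadl and Acadm together it was 53.2%, 43.3% and 36.0% in control and 44.8%, 26.8% and 35.3% in mutant, with overlap (exact permutation test, p = 0.4). Per 100 normalized counts of the summed endothelial markers it had 1.65, 2.48 and 2.66 in control and 1.98, 2.77 and 1.42 in mutant libraries. Scaled in this way the genotypes overlapped (exact permutation test, p = 0.8). The endothelial sum was itself uneven, at 207273 to 427017 in control and 125769 to 269494 in mutant. Acadl ran from 5511 to 7063 in control and from 3479 to 4565 in mutant. With so uneven a divisor, overlap of the ratio cannot show whether Acadl differed per endothelial transcript, and a part of cell content was not tested. Scaled to the microglial markers the genotypes overlapped as well (exact permutation test, p = 0.2).

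Acadm (ENSMUSG00000062908, chromosome 3, 153922357 to 153944632, minus strand) had 3170, 3543 and 4141 normalized counts in control and 2938, 3515 and 2720 in mutant libraries. Only mutant library 5 lay within the control range, and the log2 difference was -0.24 (95% interval -0.83 to 0.35, limma-trend adjusted p = 0.886). A processed pseudogene, Gm5131 on chromosome 8, matches Acadm at 93.5% over 681 bases and had 1639 to 3842 normalized counts, so some reads may be shared. Acadvl (ENSMUSG00000018574, chromosome 11, 70010183 to 70015411, minus strand) had 3055, 3932 and 5640 in control and 2693, 6001 and 4296 in mutant libraries, with the lowest and the highest value both in mutant. Its log2 difference was 0.012 (95% interval -0.86 to 0.89, limma-trend adjusted p = 0.996). Exons of Acadvl overlap in part with those of Dvl2 on the other strand. Without strand in the counting reads there cannot be told apart. Dvl2 was listed with 335 to 1264 reads, which does not show how many Acadvl reads were left uncounted there.

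Of the trifunctional protein subunits, Hadha (ENSMUSG00000025745, chromosome 5, 30118304 to 30155162, minus strand) had 4059, 2142 and 2837 normalized counts in control and 2286, 2973 and 3242 in mutant libraries. All mutant values lay inside the control range, with a log2 difference of -0.054 (95% interval -0.80 to 0.69, limma-trend adjusted p = 0.979). Hadhb (ENSMUSG00000059447, chromosome 5, 30155248 to 30184593, plus strand) had only 217, 272 and 239 normalized counts in control and 132, 210 and 219 in mutant libraries. Although both subunits join in 1 protein complex, Hadha was 5.95 to 14.2 times higher than Hadhb per kilobase of exon.

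The counts of Hadhb have to be read beside those of a near-identical copy, which was looked for after the low level of Hadhb had been seen. Gm13910 (ENSMUSG00000063684, GRCm38 chr2:108948806-108950233, plus strand) is annotated by GENCODE M21 as a processed pseudogene without introns, and it matched the coding sequence of Hadhb in 99.8% of 1428 bases. The 3 differences, counted from the first coding base of Hadhb, were G201A, A393G and G743A, and between them lay identical stretches of 191 and 349 bases, with 200 before the first and 685 after the last. The 61 bases around the last of them show how alike both are, with the differing base in capitals.
Hadhb: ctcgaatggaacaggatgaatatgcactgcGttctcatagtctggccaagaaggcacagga
Gm13910: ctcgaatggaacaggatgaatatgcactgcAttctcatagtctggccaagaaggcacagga

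Gm13910 had 9851, 11058 and 18216 normalized counts in control and 9669, 9560 and 11997 in mutant libraries, 40.7 to 76.1 times those of Hadhb. A second copy, Gm9108 on chromosome 15, matched in 97.6% of 1426 bases and had 12 to 99 reads. Hadhb held 1.29% to 2.40% of the counts on itself and both copies. The methods name Bowtie, which by itself does not split a read across an intron, and the genome offers an unbroken match to a read over an exon junction of Hadhb on such intronless copies. How many of the reads on Gm13910 came from Hadhb transcripts was not tested. The sum of Hadhb and its copies was 13318 ± 4554 normalized counts in control and 10630 ± 1411 in mutant (SD, n = 3 each; exact permutation test, p = 0.5), and the groups overlapped for the sum, for Gm13910 (log2 difference -0.28, limma-trend adjusted p = 0.886) and for Hadhb (-0.40, 95% interval -1.78 to 0.97, limma-trend adjusted p = 0.906). The level of Hadhb relative to the other enzymes is therefore uncertain in this table.

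**Figure D2:**
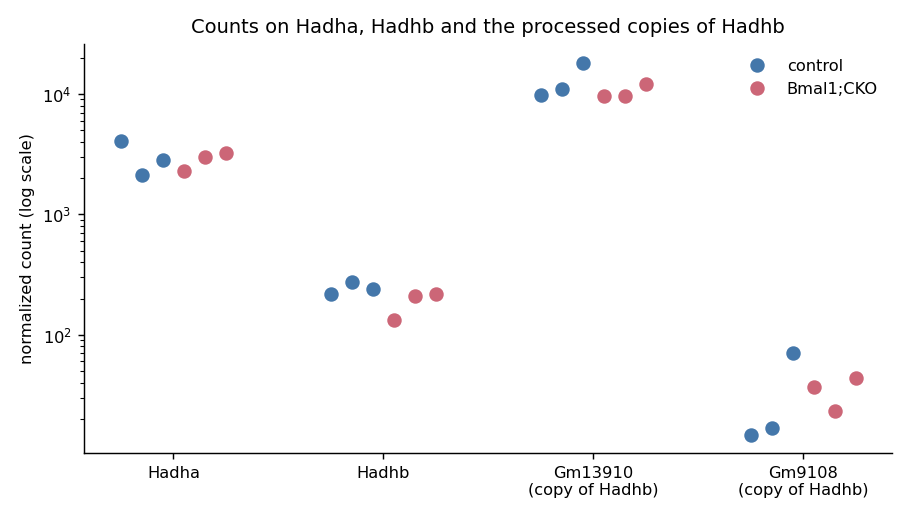
Normalized counts (vertical axis, log scale) of Hadha, Hadhb and the processed copies Gm13910 and Gm9108 in the 3 control (blue, libraries 1 to 3 from left) and 3 Bmal1;CKO (red, libraries 4 to 6) libraries. Gm13910 lay above both subunit genes in every library, at 9560 to 18216, and Hadhb between 132 and 272.

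Levels were compared between genes per kilobase of exon, as normalized counts over the union of exons in GENCODE M21. This union takes in the exons of every annotated transcript, used in these cells or not, and the order depends on it. Without division by length the mean of Angptl4 (5745) lay above that of Acadl (5025). Acadl was the highest with a mean of 2506 over the 6 libraries, above Angptl4 (1623) in 6 of 6. Angptl4, Acadvl (1590) and Cpt2 (1431) could not be put in order, since each was above the next in 3 of 6 libraries. Acadm followed with 853, below Cpt2 in 6 of 6 libraries, and then Cpt1a with 629 and Hadha with 335, each below its predecessor in 5 of 6. Ppara had 13.8 to 96.3, below Hadha in 6 of 6 libraries, and Hadhb 32.6, below Ppara in 4 of 6 and subject to the copy just described. The place of Acadm is subject to its own copy Gm5131, which had a mean of 2812 normalized counts beside 3338 for Acadm. That of Acadvl is subject to the overlap with Dvl2. Apart from Hadhb, every enzyme gene stood above the receptor gene in all 6 libraries.

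**Figure D3:**
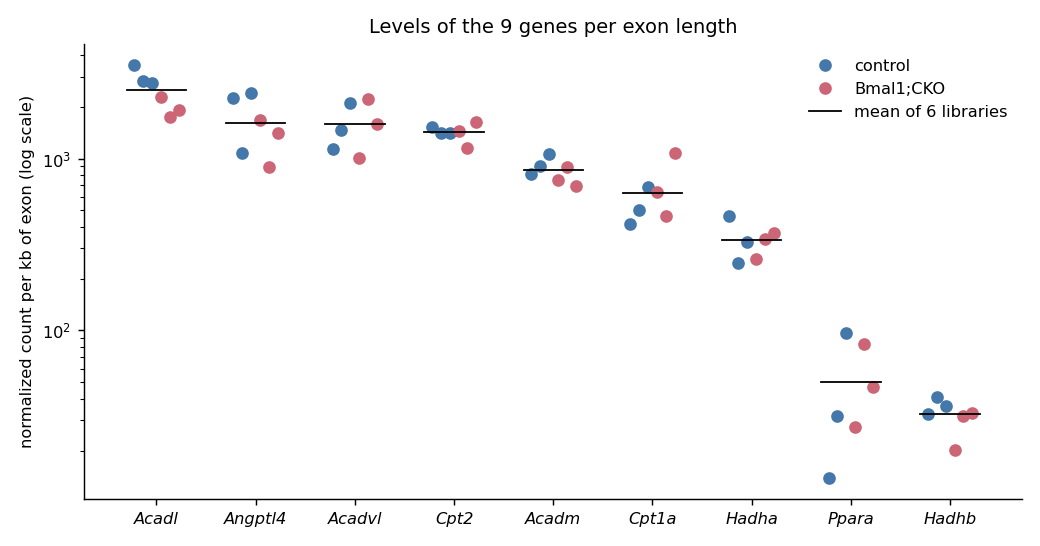
Normalized counts per kilobase of exon (vertical axis, log scale) of the 9 genes in control (blue) and Bmal1;CKO (red) libraries, ordered by the mean of 6 libraries (black line). Acadl led with 2506, and Ppara (13.8 to 96.3) and Hadhb (20.0 to 41.2) lay lowest.

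The 9 genes also differed in how evenly they were measured. Cpt2, Acadm and Acadl had pooled SDs of 0.19, 0.19 and 0.20 log2 units within groups, and only 3.26%, 3.37% and 3.62% of all genes tested had smaller ones. The median over the 9 was 0.38, beside 0.67 over all genes. The 95% interval of the log2 difference was narrowest for Acadl and widest for Ppara, and did not follow these SDs in every gene. The sum of the 6 enzymes other than Hadhb was 24468 ± 2137 normalized counts in control and 23091 ± 2788 in mutant (SD, n = 3 each; exact permutation test, p = 0.5).

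**Figure D4:**
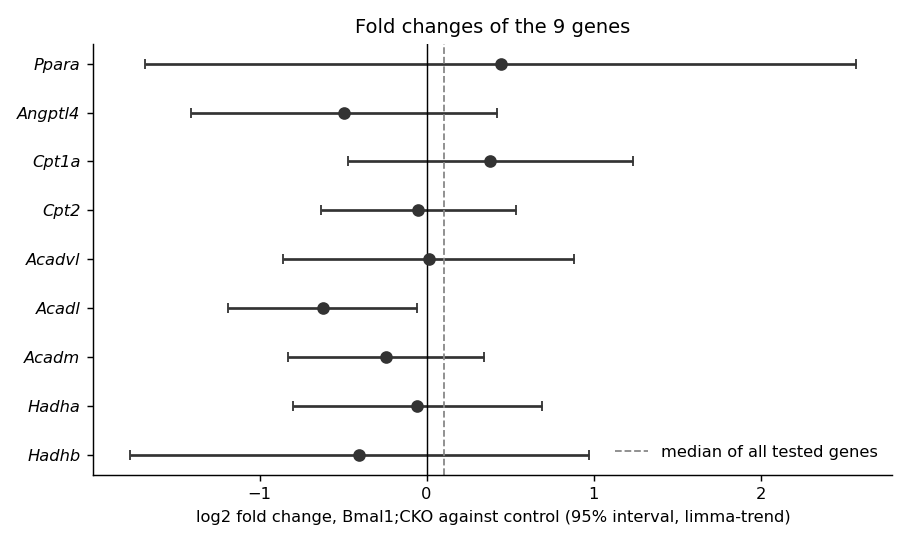
Log2 fold change of mutant against control (horizontal axis) with its 95% interval from limma-trend for the 9 genes, the dashed line marking the median of all genes tested (0.11). Only the interval of Acadl, -1.19 to -0.057, lies on 1 side of 0 before adjustment for the number of genes.

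Likeness between patterns was measured as the root mean square difference of log2 values, each gene centred on its own mean, over the 6 libraries. The closest pair among the 9 was Acadm and Hadhb (0.28), and Ppara stood farthest from the rest, between 0.605 from Acadvl and 1.20 from Angptl4. Over all genes tested, Gm9231 (0.162), Fastkd2 (0.232) and 2610021A01Rik (0.252) were least different from Ppara, all low in control library 1 and high in control library 3 and mutant library 5. For Angptl4 these were Stag3 (0.118), Klf16 (0.139) and Myo7a (0.147). With 6 libraries, depth and cell composition are shared by all of these genes.

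Further genes of the pathway were followed in 6 lists of 97 genes, of which 85 could be tested. In mutant libraries 57 had a higher and 28 a lower level, with a median log2 fold change of 0.23 beside 0.11 over all genes. Of all 20459 genes tested, 11570 were higher by limma-trend and 9797 by DESeq2. None passed FDR < 0.05 by limma-trend, edgeR with TMM scaling or DESeq2. At an unadjusted p under 0.05 there were 5 higher (5.88% of 85, beside 3.17% of all genes) and 1 lower (1.18%, beside 1.75%). Groups without overlap were seen for 9 higher (10.6%, beside 6.62%) and 2 lower genes (2.35%, beside 4.54%).

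**Figure D5:**
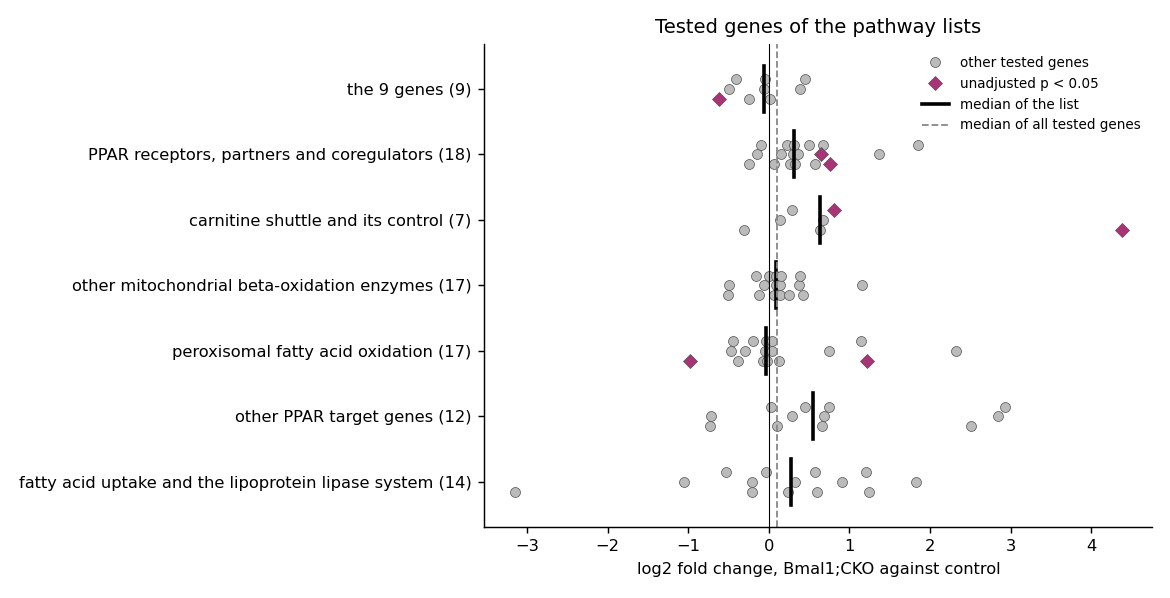
Log2 fold change of mutant against control (horizontal axis) for each tested gene of the 9 described here and of the 6 pathway lists, with the number of tested genes in parentheses, the list median as a black bar and genes at an unadjusted p under 0.05 as diamonds. The medians run from -0.054 for the 9 genes to 0.63 for the carnitine shuttle list, and the median of all genes tested (0.11) is dashed.

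Among PPAR receptors, partners and coregulators, 15 of 18 were higher and 3 lower (median 0.31). Rxrg, a retinoid X receptor that can pair with PPARα, had 1558, 956 and 1477 normalized counts in control and 2169, 2408 and 2039 in mutant libraries, without overlap (log2 difference 0.76, unadjusted p = 0.0432, limma-trend adjusted p = 0.883). Nrip1, a corepressor of nuclear receptors in metabolic genes, had 4250, 6421 and 5803 in control and 7637, 9355 and 8593 in mutant (0.65, unadjusted p = 0.0336, limma-trend adjusted p = 0.883). For Nrip1 as for Rxrg every mutant library lay above every control library, while Rxrb, the highest of the list per kilobase, overlapped (0.27).

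In the list of the carnitine shuttle and its control, 6 of 7 tested genes were higher and 1 lower (median 0.63), with Cpt1b too low to test. Crat, which makes acetylcarnitine, had 3492, 2688 and 4583 normalized counts in control and 6909, 5252 and 6374 in mutant libraries (0.81, unadjusted p = 0.0218, limma-trend adjusted p = 0.883). Acacb, the carboxylase whose malonyl-CoA restrains CPT1, had 8.61, 0.928 and 83.6 in control, the first 2 being 7 reads and 1 read, and 397, 246 and 144 in mutant (unadjusted p = 0.0171, limma-trend adjusted p = 0.883). Both were without overlap, and Mlycd, which breaks malonyl-CoA down and was the highest of the list per kilobase, overlapped (0.63). In this list groups did not overlap for 3 higher genes (42.9%, beside 6.62% of all genes) and 1 lower gene (14.3%, beside 4.54%).

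The 17 other mitochondrial enzymes held 11 higher and 6 lower genes (median 0.093) and none at an unadjusted p under 0.05. Their highest transcripts per kilobase, Acaa2 (log2 difference 0.38) and Hsd17b10 (-0.16), overlapped between the groups. Of the peroxisomal genes 7 were higher and 10 lower of 17 tested (median -0.036). The highest peroxisomal transcripts per kilobase, Acaa1a (-0.44) and Phyh (0.13), overlapped.

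Of 21 other PPAR targets only 12 were tested, 10 higher and 2 lower (median 0.55), and 0 reached an unadjusted p under 0.05. Without control library 1, 6 of the 12 genes tested were higher and 6 lower, with a median of 0.030, and the median was 0.20 without control library 2 and 0.84 without control library 3. Plin2, which coats lipid droplets, had 13457 to 37443 normalized counts in control and 27905 to 65191 in mutant libraries (0.69, limma-trend adjusted p = 0.883), and Ucp2 overlapped likewise (0.66). The 9 too low to test were Pdk4, Ucp3, Plin4, Cyp4a10, Cyp4a12a, Cyp4a14, Fgf21, Vnn1 and Cidec. In the fatty acid uptake and lipoprotein lipase list 8 of 14 were higher and 6 lower (median 0.28), none at an unadjusted p under 0.05, and the median was 0.017 without control library 1 and 0.45 without control library 3. Lpl, the enzyme that Angptl4 inhibits, had 6565 to 27700 in control and 14136 to 15140 in mutant (-0.21), and Slc27a1, a fatty acid transporter, had 4610 to 7326 in control and 8242 to 9965 in mutant, without overlap (0.59, unadjusted p = 0.0564, limma-trend adjusted p = 0.883).

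Crat, Nrip1, Acacb and Rxrg kept their direction in every alternative in which they were tested. Crat and Nrip1 had an unadjusted p under 0.05 in 12 of 16 alternatives, Acacb in 11 of 15 and Rxrg in 8 of 16, and none was under FDR < 0.05 in any.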

How the data were processed

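RNA from FACS-sorted retinal endothelial cells was amplified with a SMART v4 kit and made into Nextera XT libraries, which do not mark strand. Per the methods, the authors used FastQC for quality, Trimmomatic for trimming, Bowtie for alignment to mm10 (Ensembl GRCm38 v87), featureCounts for counting and DESeq2 for scaling and testing, with tool versions not given in the sources used here. The deposited table holds a signal per gene and library, namely read counts scaled by DESeq2 size factors. It also holds the authors' mean, fold change and p-value columns, which were not used. Dividing by the smallest step returned whole reads for 100% of values (tolerance 0.01) and size factors of 0.711 to 1.40. Column names give the genotype, and their numbers do not match the samples' labels, so each column was a replicate of its genotype.

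Genes reaching 10 reads in 3 or more libraries (20459) were tested with limma-trend (limma 3.58.1, R 4.3.3) on log2(normalized count + 1), genotype as the only term, with Benjamini-Hochberg adjustment, and fold changes are differences between mean log2 values, which for low or variable genes can lie above or below the ratio of means. Single values were compared by two-sided exact permutation tests. Alternatives were edgeR 4.0.16 quasi-likelihood tests on recovered reads (TMM or size factors), limma-voom, DESeq2 1.42.0, log2 CPM, no variance trend, pseudocounts of 0.5 and 10, other filters and each library left out. The fits were tested on simulated data. P-values rest on the spread between 3 libraries a group, and in limma, edgeR and DESeq2 also on variance information shared across genes. Coordinates and exon lengths came from GENCODE M21 (GRCm38), promoters from RefSeq, and copies from BLAST+ 2.17.0 searches (at least 90% identity over 500 bases).

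The genes, the lists and the tests were chosen with earlier results of these data known. Named in each list were the 2 highest tested genes per kilobase and every gene at an unadjusted p under 0.05, the copies and the overlapping genes being added after their values were seen. Some genes that met this rule are not reported here.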

Additional observations from a re-analysis of the deposited data

How the results depend on the processing

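None of the 9 genes passed FDR < 0.05 in any of the 16 alternatives. The number at an unadjusted p under 0.05 was 1 or 0, and 0 without the variance trend and without control library 1 or mutant libraries 5 or 6. Without control library 2 the gene was Angptl4 (unadjusted p = 0.0419, limma-trend adjusted p = 0.852) and not Acadl (0.0530). The median log2 fold change of the 9 genes ran from -0.25 to -0.073 with 1 library left out and from -0.088 to -0.047 otherwise. Over all genes, DESeq2 called 67, limma without the trend 61, and each other filter on low values 1, and leaving out 1 library gave 0 to 6. The direction turned for Ppara without control library 1 (-0.22), for Cpt2 without mutant library 5 (0.095), for Hadha without mutant library 4 (0.093) or control library 1 (0.19), and for Acadvl without mutant library 5 (-0.26), mutant library 6 (-0.020), control library 1 (-0.20) or control library 2 (-0.014). With 1 library left out at a time their log2 fold changes ran from -0.22 to 1.17 for Ppara, -0.16 to 0.095 for Cpt2, -0.28 to 0.19 for Hadha and -0.26 to 0.32 for Acadvl. The cause was not tested. Angptl4, Cpt1a, Acadl, Acadm and Hadhb kept their direction throughout. By DESeq2, 13 of 18 PPAR receptors, partners and coregulators were higher, and 5 of 7 carnitine shuttle genes. So were 10 of 17 other mitochondrial enzymes, 7 of 17 peroxisomal genes, 9 of 12 other PPAR targets and 7 of 14 fatty acid uptake genes. The medians of the pathway lists kept their sign under every scaling, and with a library left out the peroxisomal median reached 0.17 without control library 3, that of the other mitochondrial enzymes -0.013 without mutant library 4, and those of the other PPAR targets and of fatty acid uptake 0.030 and 0.017 without control library 1. No paired analysis was possible because the numbers of the table's columns do not match the replicate numbers of the labels.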
